A study of Mus musculus with 4 samples.

Results

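Neuropeptides and peptide hormones are made as long precursors that are cut and trimmed inside dense core vesicles before release. The prohormone convertases encoded by Pcsk1 and Pcsk2 cut the precursor at basic residues, carboxypeptidase E (Cpe) removes the basic residues left behind, and peptidylglycine alpha-amidating monooxygenase (Pam) amidates the end of many peptides. Pcsk1n encodes proSAAS, an inhibitor of the Pcsk1 enzyme, and Scg5 encodes a secretory chaperone that the Pcsk2 enzyme needs to mature. Scg2, Scg3, Chga and Chgb are granins, acidic vesicle proteins that help to load and shape dense core vesicles and are themselves precursors of peptides. The hypothalamus is the brain area best known for this machinery, and hippocampal and cortical neurons carry dense core vesicles as well.

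These 10 genes are described here, of 19465 features counted by the probe panel. They were chosen by symbol and with their levels over areas, their Moran's I and their diet comparison already known, so their levels and Moran's I are given as a description with no test. All 10 were measured in every section, and all 10 passed the filter on low counts in every comparison. The summed UMIs (unique molecular identifiers, each a counted probe molecule) of a section ranged from 1620 to 4246 for Pcsk1 and from 61532 to 130775 for Pcsk1n. Pcsk1 had a UMI in 33.7% to 61.3% of the spots of a section, and each other gene in at least 80.4%.

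The samples were 4 coronal brain sections from wild-type male mice at postnatal day 21 (P21), profiled with Visium for formalin-fixed paraffin-embedded tissue, in which probes are counted on a grid of spots and each spot can hold several cells. The mothers were C57BL/6J mice fed a diet with 2 mg/kg folic acid (the MF group, 2 sections) or 20 mg/kg folic acid (the HF group, 2 sections) from 2 weeks before mating through pregnancy and lactation. The study calls the sections of a group biological replicates, and which litters they came from is not given in the sources used here. Fewer cells of a type and less RNA per cell cannot be told apart in sums over spots.

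After removal of 2 to 7 spots per section, 3197 to 3598 spots remained. The median UMIs per spot were 23544 in MF replicate 1 and 9286 to 12075 in the other sections. Levels are given as counts per 1000000 UMIs (CPM), of the UMIs summed over the spots of an area. Spots fell into 26 clusters, found without these genes, which formed regions named from marker genes. 4 clusters, with 1890 spots, could not be named, for too few markers or for leading genes that pointed to another region. They are called by their leading genes. The sections did not hold the same parts of the hypothalamus. Hcrt (hypocretin) was at 304 to 402 CPM in the hypothalamus of 3 sections and at 0.161 CPM in HF replicate 2, and Pmch (melanin-concentrating hormone) was at 1518 to 3421 CPM against 2.09 CPM. Oxt (oxytocin) was at 2678 CPM in HF replicate 2 and at 0.496 to 15.2 CPM in the other sections, and Avp (vasopressin) at 2213 CPM against 1.65 to 2.72 CPM. The hypothalamic cluster led by Irs4 and Asb4 held 25 spots in HF replicate 2 and 93 to 223 in the others. The hypothalamic differences of Chgb, Pam and Scg2 are therefore also given without that section, and calls in the closing section.

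The genes lie on 6 autosomes and the X chromosome of GRCm38 (mm10), and all are annotated as protein coding in GENCODE. Of the processing enzymes, Pcsk1 lies at chr13:75089826-75134861, Pcsk2 at chr2:143546156-143816285, Cpe at chr8:64592542-64693054 and Pam at chr1:97795114-98095646. Their partners Pcsk1n and Scg5 lie at chrX:7919822-7924410 and chr2:113776362-113829121. Of the granins, Scg2 lies at chr1:79434669-79440120, Scg3 at chr9:75643189-75684056, Chga at chr12:102554969-102565028 and Chgb at chr2:132781278-132795079.

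Upstream windows of 250 bases before the RefSeq start were at hand for 9 of the genes (not Cpe). The palindrome TGACGTCA, the letters of the cyclic AMP response element, was found in 3 of these 9 windows, those of Pcsk1, Scg2 and Chgb, and in 1.77% of the 27025 genes with a window. The shorter TGACG, which lies within the palindrome, was found on either strand in 7 of 9 windows (Pcsk1, Pcsk2, Scg2, Scg3, Scg5, Chga and Chgb) and in 19.8% of all genes. Neither TGACGCAA nor TATAAA, searched on both strands, was in any of the 9 windows, against 0.507% and 14.3% of all genes. The 3 stretches are shown with the palindrome in capitals because only these genes held it in full. Each is printed 5′ to 3′ on the gene's strand (RefSeq, GRCm38.p6):
Pcsk1 (chr13:75089768-75089797, plus strand): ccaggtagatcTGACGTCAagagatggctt
Scg2 (chr1:79440076-79440105, minus strand): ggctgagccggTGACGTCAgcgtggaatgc
Chgb (chr2:132781559-132781588, plus strand): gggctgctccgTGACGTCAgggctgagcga
The palindrome began 78, 68 and 72 bases before the RefSeq start of Pcsk1, Scg2 and Chgb. GENCODE places a start further upstream for Scg2 and Chgb, so their stretches overlap an annotated exon there, and the Pcsk1 stretch does not. These matches describe letters only and were not tested as sites.

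Over the 12 areas with at least 100 spots, no pair of genes had the same order of areas. The hypothalamus was the highest area for Pcsk1, Pcsk1n, Scg2, Scg5 and Chga, the thalamus for Pcsk2, the medial habenula for Pam, the hippocampus for Chgb, and an unnamed cluster led by Ndnf, Dio2 and Reln for Cpe and Scg3. White matter was below the mean of areas for 10 of 10 genes. The fold between the highest and the lowest of these areas ran from 1.74 for Cpe to 4.55 for Pcsk1. The choroid plexus, with 44 spots, fell under the size limit and is left out of the orders given here. Several genes were lower still there, such as Pcsk1n (419 CPM) and Cpe (646 CPM), but Pcsk1 (16.3 CPM) was not. Where the ranges of 4 sections overlap, areas next to each other in this order are not told apart.

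**Figure D1:**
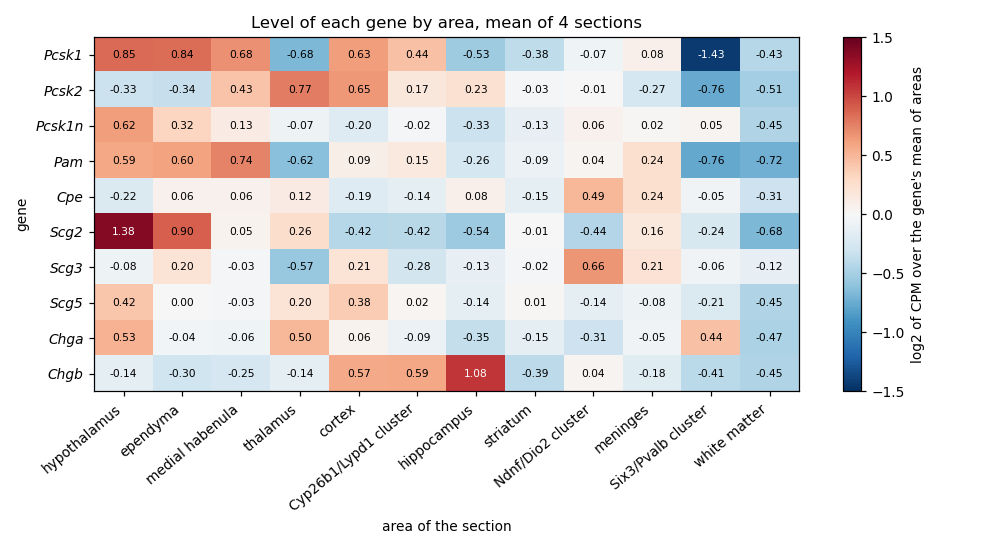
Level of each of the 10 genes (rows) in 12 areas (columns) as log2 of the area's CPM over that gene's mean of areas, averaged over 4 sections (2 MF, 2 HF). Scg2 in the hypothalamus (1.38) and Chgb in the hippocampus (1.08) are the highest cells, and the white matter column is below 0 for every gene.

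Among the convertases, Pcsk1 was at 74.5, 78.5, 81.6 and 55.8 CPM in the hypothalamus of MF replicates 1 and 2 and HF replicates 1 and 2. In the thalamus it was at 29.7, 27.6, 23.7 and 19.6 CPM. Every hypothalamic value lay above every thalamic one, and the mean ratio was 2.91 ± 0.39 (SD, n = 4 sections). Ependyma (72.4 CPM), medial habenula (64.1 CPM) and cortex (61.8 CPM) overlapped the hypothalamus in range. The lowest level, 15.9 CPM, was in the cluster led by Six3, Pvalb and Spp1. No neighbours in the Pcsk1 order were apart in their ranges.

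Pcsk2 showed another order. It was at 641, 592, 693 and 729.7 CPM in the thalamus and at 297, 299, 328 and 317 CPM in the hypothalamus, in the same section order. The hypothalamic level was 0.469 ± 0.030 of the thalamic one (SD, n = 4), and the thalamus ranked highest in 4 of 4 sections, above cortex at 608 CPM, from which its range was not apart. The ratio of Pcsk1 to Pcsk2, relative to the same ratio over the whole section, was 1.30 ± 0.11 on the log2 scale in the hypothalamus and -1.33 ± 0.25 in the thalamus (SD, n = 4). The ratio was highest in ependyma (1.30 ± 0.54) and hypothalamus, which did not differ beyond their spread. Within a section, then, Pcsk1 was high relative to Pcsk2 in the hypothalamus and low relative to it in the thalamus.

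Pcsk1n, the inhibitor of the Pcsk1 enzyme, was highest in the hypothalamus, at 2296, 2463, 2734 and 2199 CPM, apart from ependyma at 1966 CPM. Its ratio to Pcsk1 was near the whole-section ratio in the hypothalamus (-0.04 ± 0.03 on the log2 scale) and above it in the thalamus (0.79 ± 0.23), where Pcsk1 was low. Scg5, the chaperone of the Pcsk2 enzyme, was highest in hypothalamus (583 ± 31 CPM) and cortex (568 ± 11 CPM), which overlapped, and came next in the thalamus (502 ± 16 CPM). Its ratio to Pcsk2, relative to the whole-section ratio, was 0.90 ± 0.08 on the log2 scale in the hypothalamus and -0.41 ± 0.09 in the thalamus (SD, n = 4).

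Of the later enzymes, Pam was highest in medial habenula (499 ± 76 CPM), ependyma (453 ± 68 CPM) and hypothalamus (451 ± 91 CPM), whose ranges overlapped. It was lowest in the Six3 and Pvalb cluster (175 ± 19 CPM) and white matter (180.0 ± 17.6 CPM). Over the 12 areas the profile of Pam was closest to that of Pcsk1 (Pearson r = 0.90 over 12 areas of the same sections). Cpe had the flattest profile. It was at 2001 ± 44 CPM in the Ndnf and Dio2 cluster, apart from meninges at 1690.0 ± 196.8 CPM, and at 1150.4 ± 124.1 CPM in white matter. In the hypothalamus Cpe was 11th of 12 areas, with a mean of 1234 CPM and a range of 998 to 1485 CPM.

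The 4 granins were highest in 3 different areas. Scg2 was at 650.3, 710.3, 685 and 502 CPM in the hypothalamus and at 198, 182, 194 and 153 CPM in the cortex, in the order MF replicates 1 and 2 and HF replicates 1 and 2. No section overlapped, and the mean ratio was 3.50 ± 0.30 (SD, n = 4). Ependyma came next at 454 CPM, within the hypothalamic range only at its upper end. Chga was highest in hypothalamus (452 ± 34 CPM), thalamus (443 ± 8.1 CPM) and the Six3 and Pvalb cluster (425 ± 20 CPM), whose ranges overlapped, and lowest in white matter (227 ± 15 CPM). Scg3 was highest in the Ndnf and Dio2 cluster (580.4 ± 29.8 CPM), apart from all other areas, and lowest in the thalamus (247 ± 13 CPM).

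Chgb was highest in the hippocampus, followed by the Cyp26b1 and Lypd1 cluster (635 ± 38 CPM) and cortex (631 ± 48 CPM). Its hippocampal level was 925, 913, 849 and 878 CPM, and its hypothalamic level 417, 412, 352 and 357 CPM, so the hypothalamic level was 0.431 ± 0.023 of the hippocampal one (SD, n = 4). It was highest in 1 of the 4 hippocampal clusters, the one led by Il16, Ccbe1 and Ptgs2, whose markers place it in CA2-3 (114 spots). There Chgb was at 2274, 2496, 2397 and 2468 CPM, 4.27 ± 0.63 times the mean of the other hippocampal clusters. The dentate gyrus cluster (527 ± 82 CPM) and the clusters led by Spink8 and Fibcd1 (576 ± 78 CPM) and by Cabp7 and Thbs4 (614 ± 78 CPM) had lower means than the cortex. The same CA2-3 cluster also held more Pcsk2 (729 ± 32 CPM, 1.77 ± 0.20 times the other clusters) and Cpe (2334 ± 277 CPM, 1.70 ± 0.13 times), and less Scg2 (0.719 ± 0.042 times). Relative to Chgb, Scg2 was thus at 1.52 ± 0.04 on the log2 scale in the hypothalamus and at -1.62 ± 0.10 in the hippocampus, each centred on the whole-section ratio.

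**Figure D2:**
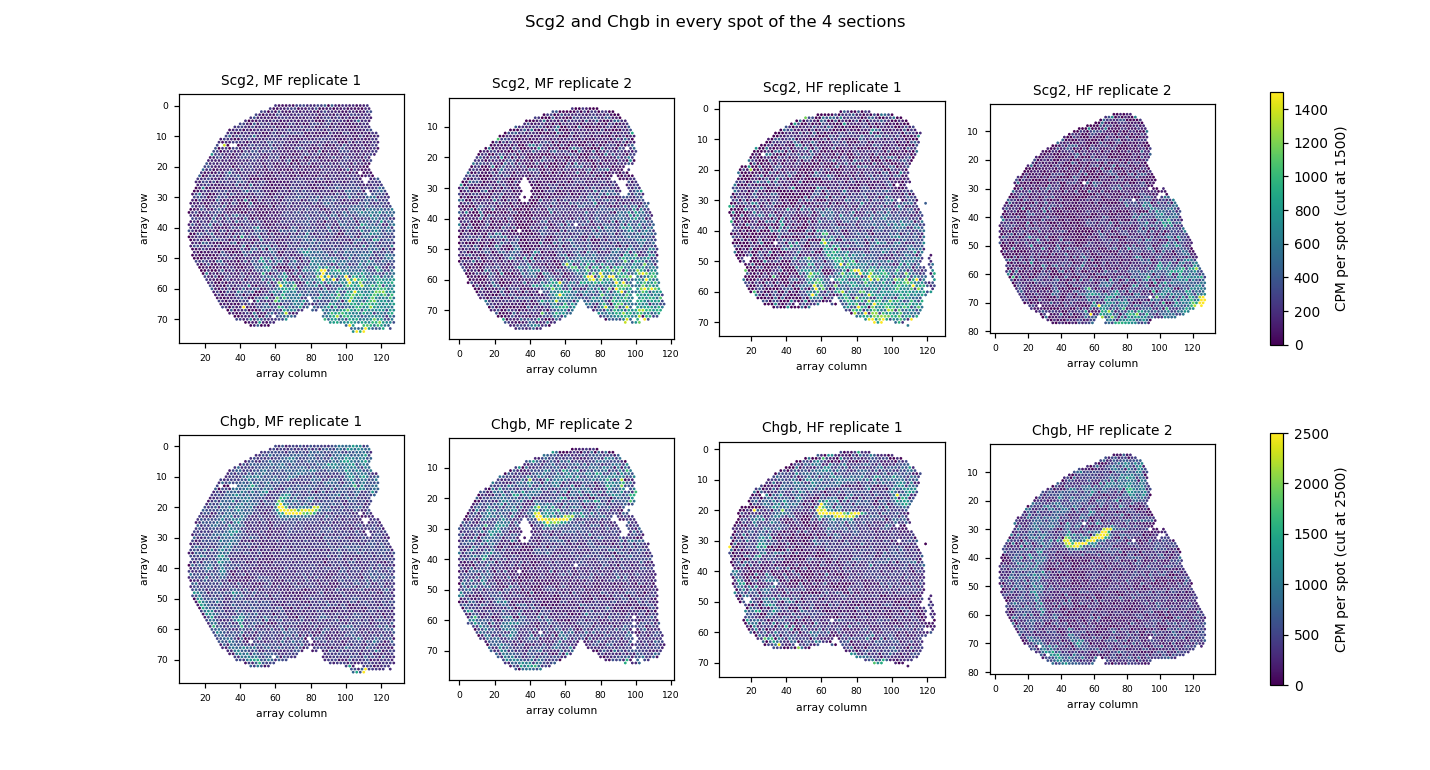
CPM of Scg2 (top) and Chgb (bottom) in each spot of the 4 sections, placed by array column and row, with values past the end of the colour bar drawn in its last colour. Scg2 is brightest at the base of each section in the hypothalamus (502 to 710.3 CPM summed over its spots), and Chgb along 1 curved band of the hippocampus (2274 to 2496 CPM).

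The cluster led by Cga, Ces1d and Cyp2f2 held 25 spots in 3 sections and none in HF replicate 2. Cga encodes the subunit shared by pituitary glycoprotein hormones. In it Chga was at 3897 to 7058 CPM, 12.9 ± 3.8 times its hypothalamic level (SD, n = 3 sections), and Chgb and Scg2 were 2.81 ± 1.12 and 1.94 ± 0.68 times theirs. Pcsk2 was at 0.486 ± 0.168 and Cpe at 0.579 ± 0.129 of their hypothalamic levels. The mean Chga of these few spots, 5950.3 ± 1779.7 CPM, was the highest of the 26 clusters.

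Within the hypothalamus, spots with at least 1000 CPM of a peptide precursor were set against the other hypothalamic spots of the same section. Hcrt-rich spots numbered 22 to 27 in 3 sections. Pcsk1 was at 203, 222 and 158 CPM in them and at 68.7, 71.9 and 77.2 CPM in the other spots of MF replicate 1, MF replicate 2 and HF replicate 1. Scg2 was at 1522, 1854 and 1206 CPM in them against 612, 658 and 655 CPM. The mean differences were 1.40 (range 1.03 to 1.62) and 1.23 (range 0.88 to 1.495) on the log2 scale, with every rich value above every other one. The other 8 genes differed by 0.02 to 0.24 on average in the same spots, Pcsk1n and Cpe by 0.02 and 0.04.

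Spots rich in Pmch, which encodes the precursor of another peptide of the lateral hypothalamus, showed no such rise. They numbered 408 of 611, 175 of 515 and 158 of 537 hypothalamic spots in MF replicate 1, MF replicate 2 and HF replicate 1. This is a far larger part of the region than the 22 to 27 Hcrt-rich spots, so the contrasts are not alike. The mean difference of each of the 10 genes lay between -0.13 and 0.09 on the log2 scale. In Sst-rich spots (47 to 138 per section, 4 sections) the mean difference was largest for Pam, at 0.32 (range 0.16 to 0.43). HF replicate 2 alone held Oxt-rich and Avp-rich spots (92 and 93). There Pcsk1 was 1.196 and 1.26 higher on the log2 scale and Pam 0.59 and 0.73 higher, while Scg2 was 0.18 higher in Oxt-rich and 0.74 higher in Avp-rich spots. With 1 section these last values have no replicate. Npy-rich spots (10 and 15 in the 2 sections with at least 10) had mean differences of 0.68 for Chga (0.23 in MF replicate 1 and 1.13 in HF replicate 1), 0.62 for Pcsk1n, 0.54 for Pam and -0.47 for Cpe. In Cartpt-rich spots (23 in each of 3 sections) Scg2 differed by 0.29 (range 0.23 to 0.33). Chga differed there by 0.99 in MF replicate 2 and by 0.15 and 0.17 in MF replicate 1 and HF replicate 1.

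**Figure D3:**
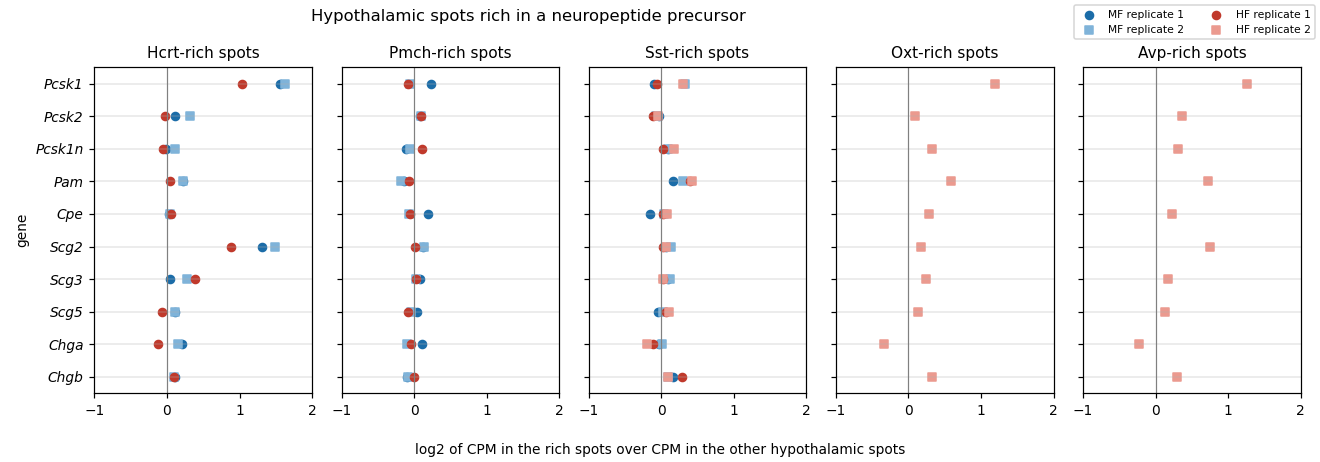
Difference of each of the 10 genes between hypothalamic spots with at least 1000 CPM of a precursor and the other hypothalamic spots, on the log2 scale, with 1 point per section that held at least 10 rich spots. Pcsk1 and Scg2 stand apart in Hcrt-rich spots (means 1.40 and 1.23), and no gene does in Pmch-rich spots, which made up a far larger part of the hypothalamus.

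Over spots, the features most like each gene were found by the mean Pearson r within sections among 8112 features with a UMI in at least 20% of the spots of every section. Spots of 1 section share its depth and tissue, so these values describe co-location. Pcsk1n was most like Nap1l5 (r = 0.44), Gnas (0.42) and Baiap3 (0.36), and Scg2 like Nap1l5 (0.33), Nrsn2 (0.31) and Resp18 (0.29). Gnas encodes the stimulatory G protein alpha subunit, and Resp18 a neuroendocrine secretory protein. Pcsk2 and Chgb were most like Snap25 (0.31 and 0.29), the synaptic membrane fusion protein, followed by Clstn1 and Syp for Pcsk2 and by Basp1 and Dnm1 for Chgb. Cpe was most like Slc1a2 (0.28), Cst3 (0.26) and Mt1 (0.26), and Scg3 like Slc1a2 (0.17), Tspan7 and Epb41l1. Slc1a2 encodes the main glutamate transporter of astrocytes. Chga was most like Stmn3, Uchl1 (both 0.25) and Nap1l5, and Scg5 like Snhg11 (0.24). Pcsk1, with few UMIs per spot, reached 0.15 with Rtn1, followed by Olfm2 and Ptprn, and Pam 0.21 with Pnmal2, followed by Ly6h and Rtn1.

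Moran's I measures how alike neighbouring spots are, from about 0 for no spatial order towards 1. The deposited values averaged 0.399 for Pcsk1n, 0.391 for Scg2, 0.309 for Pcsk2, 0.300 for Chgb, 0.244 for Pam, 0.224 for Chga, 0.217 for Cpe, 0.164 for Scg5, 0.137 for Scg3 and 0.110 for Pcsk1. The median over all features of a section was 0.0104 to 0.0166, and the 90th percentile 0.0931 to 0.135. Pcsk1n was at 0.465, 0.453, 0.353 and 0.323 and Scg2 at 0.451, 0.416, 0.402 and 0.296 in MF replicates 1 and 2 and HF replicates 1 and 2. Pcsk1n and Scg2 ranked within the top 1.68% of features in every section, and Scg3 within the top 12.2%. The index was highest in MF replicate 1, the deepest section, for all 10 genes. Recomputed on ln(CPM + 1) at full depth, the mean was 0.378 for Pcsk1n, 0.256 for Scg2 and 0.103 for Pcsk1, so the Scg2 index differed from the deposited one before any thinning. When the 12710 of 13452 spots with at least 5000 UMIs (2687 of 3197 in HF replicate 1) were thinned to that number and the rest left out, the recomputed mean was 0.215, 0.173 and 0.0502, and MF replicate 1 was highest only for Cpe and Scg3.

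**Figure D4:**
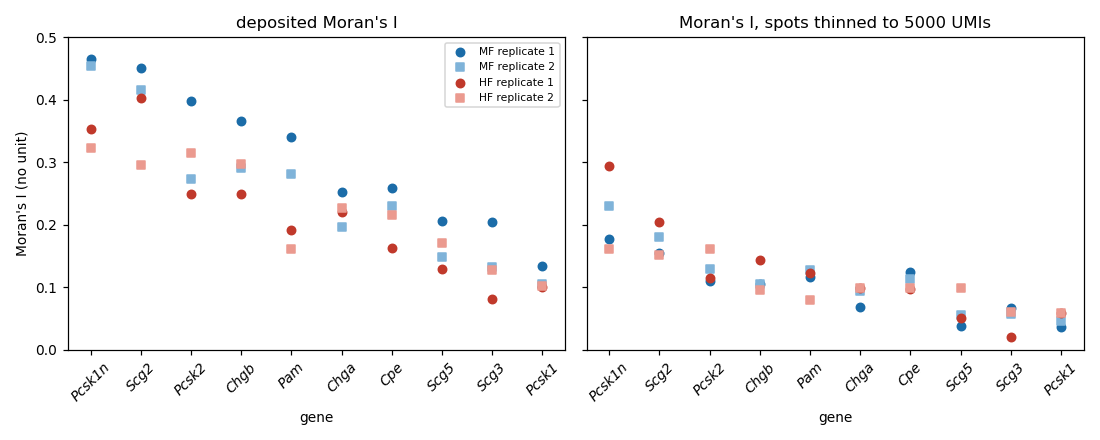
Moran's I of the 10 genes in the 4 sections, as deposited (left) and recomputed on ln(CPM + 1) after spots with at least 5000 UMIs were thinned to that number and shallower spots left out (right). The deposited index is highest in MF replicate 1 for each gene, and the right panel differs from the left both in the computation and in depth (0.399 and 0.215 on average for Pcsk1n).

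The diet comparison asked whether these genes differed between offspring of mothers fed 20 and 2 mg/kg folic acid. None of the 10 was called in the whole section or in any of 5 regions by edgeR (adjusted p under 0.05 and at least 1.2-fold). The largest difference was 0.40 on the log2 scale (Pcsk1 in the thalamus), and adjusted p-values ran from 0.559 to 0.999. With 2 sections per diet an exact permutation test of 1 gene cannot go below p = 0.333, so only the fit across all features was used.

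In the whole section 0 of 10 genes were called, against 0% of 14971 features, and 0 of 10 had an unadjusted p under 0.05, against 6.81% of all. DESeq2 likewise called none of the 10. Pcsk1n was at 1451 and 1529 CPM in MF and at 1759 and 1547 CPM in HF, a log2 difference of 0.14 ± 0.08 (SE, edgeR, adjusted p = 0.741). Chgb was at 543 and 499.8 CPM in MF and at 469.7 and 463 CPM in HF, a difference of -0.17 ± 0.08 (adjusted p = 0.722). In these 2 genes the sections of the diets did not overlap, as in 39.6% of all tested features. In the other 8 they overlapped. The summed level of 14 choroid plexus markers was 2923 and 2765 CPM in MF and 3895 and 4324 CPM in HF (11 of 14 higher in both HF sections). That of 8 oligodendrocyte markers was 25694 and 26846 CPM in MF and 21369 and 22863 CPM in HF (7 of 8 lower in both HF sections). The part of either list was not tested. The median difference of the 10 was -0.06, and that of all features 0.00.

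HF replicates 1 and 2 differed from each other by more than the diets did for several members. Cpe was at 1403 and 1387 CPM in MF but at 1562 and 1144 CPM in HF, and Scg2 at 284 and 303 CPM in MF but at 324 and 229.7 CPM in HF. Without HF replicate 1, the differences of Scg2, Pcsk1 and Cpe were -0.35, -0.30 and -0.28, with HF then resting on replicate 2 alone. Without HF replicate 2 the differences of these 3 genes were 0.12, 0.05 and 0.14. The direction of these genes in the whole section therefore differed with the HF section used.

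In the cortex 0 of 10 genes were called (0.182% of all features) and 0 of 10 had an unadjusted p under 0.05 (8.18%). Pcsk1n was at 1312 and 1309 CPM in MF and 1456 and 1403 CPM in HF, a difference of 0.14 ± 0.07. Chga was at 337 and 358 CPM against 336 and 279 CPM, and Chgb at 688 and 638 CPM against 624 and 572 CPM. Scg2 was at 198 and 182 CPM in MF and 194 and 153 CPM in HF, so Scg2 and Chga were both lowest in HF replicate 2. The diets did not overlap in Pcsk1n, Pcsk2, Chga or Chgb, 40% of the members, as in 37.3% of all tested features. In the hippocampus 0 of 10 were called (0.0161%) and 0 of 10 had an unadjusted p under 0.05 (7.61%). Over the whole hippocampus Chgb was at 925 and 913 CPM in MF and 849 and 878 CPM in HF, a difference of -0.08 ± 0.08. Pcsk1n was at 1226 and 1156 CPM against 1356 and 1272 CPM, a difference of 0.15 ± 0.08. The diets did not overlap in these genes, 20% of the members, against 37.3% of all tested features. Chgb in the CA2-3 cluster was at 2274 and 2496 CPM in MF and 2397 and 2468 CPM in HF. The diets thus overlapped where the gene was highest. The summed level of 8 oligodendrocyte markers was lower in both HF than in both MF sections in cortex (10550.4 and 9397 against 12669 and 12435 CPM) and hippocampus (11177 and 10264 against 15772 and 15133 CPM), for 8 of 8 markers, and its part in these differences was not tested.

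In the thalamus 0 of 10 genes were called (0% of all features). An unadjusted p under 0.05 (edgeR) was found for 3 of 10, against 7.09% of features. That count was 0 on spots thinned to 5000 UMIs, 1 with a block for replicate number and 2 with DESeq2. It was 3 without the filter on low counts. Pcsk1 was at 29.7 and 27.6 CPM in MF and 23.7 and 19.6 CPM in HF, a difference of -0.40 ± 0.14 (edgeR, unadjusted p = 0.0174, adjusted p = 0.640). Pcsk1n was at 1367 and 1364 CPM in MF and 1622 and 1629 CPM in HF, a difference of 0.25 ± 0.08 (unadjusted p = 0.0144, adjusted p = 0.607). Pcsk2 was at 641 and 592 CPM against 693 and 729.7 CPM, a difference of 0.20 ± 0.09 (unadjusted p = 0.0491, adjusted p = 0.701). The diets did not overlap in these 3 genes or in Chga, 4 of 10 members, as in 38.3% of all tested features. Without HF replicate 1, when HF rested on replicate 2 alone, the Pcsk1 difference was -0.56. Scg2 and Cpe were likewise lowest in HF replicate 2 in the thalamus (249.7 and 1321 CPM). The thalamic clusters were unevenly sampled. The one led by Gbx2 and Igkc held 115 to 384 spots per section, and the one led by Gbx2 and Cbln1 6 to 154. In the cluster led by Tnnt1 and Prkcd, Pcsk1 was at 30.7 and 27.8 CPM in MF and 23.4 and 18.7 CPM in HF. Pcsk1n was there at 1267 and 1241 CPM against 1473 and 1365 CPM. In the Gbx2 and Cbln1 cluster the diets overlapped in Pcsk1 (34.2 and 27.9 against 28.3 and 24.4 CPM). These cluster values were not tested. The oligodendrocyte markers were lower here too (23287 and 23642 against 27940 and 29561 CPM, 8 of 8 markers), and their part was not tested.

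In the hypothalamus 0 of 10 genes were called (0% of all features), and 1 of 10 had an unadjusted p under 0.05 (6.8%). That gene was Chgb, at 417 and 412 CPM in MF and 352 and 357 CPM in HF, a difference of -0.24 ± 0.09 (edgeR, unadjusted p = 0.0333, adjusted p = 0.726). Without HF replicate 2 it was -0.25 ± 0.10 (adjusted p = 0.155). The diets did not overlap in Chgb or in Pcsk2, 2 of 10 members, against 38.4% of all tested features. Pam was at 456 and 540.5 CPM in MF but 482 and 325 CPM in HF, and Scg2, listed above, was likewise low in HF replicate 2 only. The differences of Pam and Scg2 were -0.32 and -0.21 with that section and -0.07 and -0.01 without it. Cpe and Pcsk1 were also lowest in HF replicate 2 there (998 and 55.8 CPM). The summed level of 6 pituitary hormone genes was 83.2 and 78.7 CPM in MF and 53.6 and 1.45 CPM in HF there, and its part was not tested.

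In the striatum 0 of 10 genes were called (0.0522%), and 2 of 10 had an unadjusted p under 0.05 (7.24%). That count was 1 on spots thinned to 5000 UMIs and with DESeq2, and 2 without the filter on low counts. Chgb was at 377 and 345 CPM in MF and 291 and 283 CPM in HF, a difference of -0.33 ± 0.11 (edgeR, unadjusted p = 0.00788, adjusted p = 0.559). Chga was at 297 and 319 CPM against 272 and 249.6 CPM, a difference of -0.24 ± 0.11 (unadjusted p = 0.0472, adjusted p = 0.677). No section overlapped between diets in these genes, Pcsk2 and Scg2, 4 of 10 members, as in 36.2% of all tested features. Across the 5 regions and the whole section Chgb was lower in HF by 0.08 to 0.33, Scg2 by 0.09 to 0.21 and Scg3 by 0.02 to 0.10 on the log2 scale, and Pcsk1n was higher by 0.04 to 0.25, with none called. The regions are parts of the same 4 sections and are not independent.

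**Figure D5:**
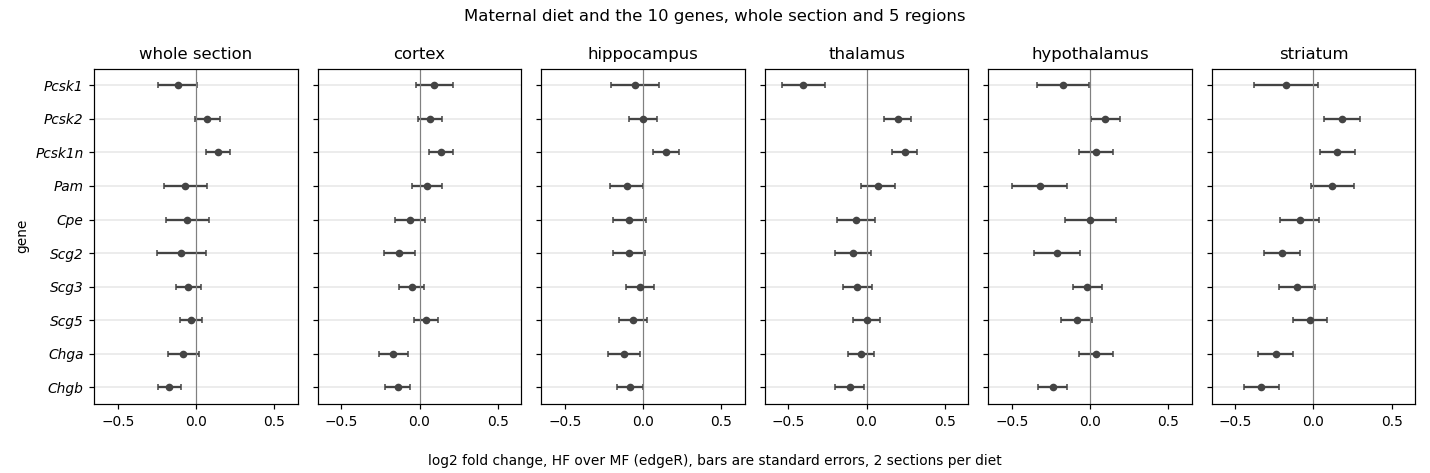
Log2 fold change of HF over MF for each of the 10 genes in the whole section and 5 regions, from edgeR, with standard errors (2 sections per diet). No gene passed the threshold in any panel. The largest difference is that of Pcsk1 in the thalamus (-0.40).

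Whether the diet difference varied between the 5 regions was tested with an interaction term and a block for section. No gene was called (0 of 10, against 0.0865% of 13867 features). An unadjusted p under 0.05 (edgeR) was found for 3 of 10, against 7.61% of features. That count was 1 on spots thinned to 5000 UMIs and 5 without the filter on low counts. Relative to the cortex, the Pam difference was -0.39 on the log2 scale in the hypothalamus (edgeR, unadjusted p = 0.000663 over all regions, adjusted p = 0.143). The Pcsk1 difference was -0.52 in the thalamus (unadjusted p = 0.0042, adjusted p = 0.308), and the Chga difference 0.20 in the hypothalamus (unadjusted p = 0.0422, adjusted p = 0.635). Without HF replicate 2 these differences were -0.23 for Pam, -0.59 for Pcsk1 and 0.18 for Chga. Without HF replicate 1 they were -0.57 for Pam, -0.43 for Pcsk1 and 0.22 for Chga. Each of these fits rests on a lone HF section, so only differences are given here, and calls in the closing section. With every section kept, Pam was called in this test without the filter on low counts, with 302 of 18725 features.

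The wider pathway was taken as 39 genes in 3 lists, chosen by function, of which none of those tested was called in any comparison. In the whole section 7 of 9 genes of vesicle cargo and membrane, 9 of 15 of vesicle traffic and release and 8 of 15 other proteases and modifying enzymes were lower in HF. The median of the 39 was -0.08 against 0.00 for all features, and 3 of 39 had an unadjusted p under 0.05. The largest differences were in Pcsk5, another convertase (4.10 and 4.31 CPM in MF, 5.49 and 5.58 CPM in HF, 0.39 ± 0.13, adjusted p = 0.696), and in Slc18a2, the vesicular monoamine transporter (10.4 and 14.1 CPM in MF, 17.04 and 3.22 CPM in HF, -0.30 ± 0.64, adjusted p = 0.934). Resp18, a vesicle cargo gene among the features most like Scg2 and chosen for mention after its values were seen, was at 954 and 885 CPM in MF and 746 and 733 CPM in HF in the hypothalamus, a difference of -0.33 ± 0.10 (adjusted p = 0.726). In the striatum it was at 159 and 177 CPM against 98.6 and 122 CPM, a difference of -0.56 ± 0.13 (adjusted p = 0.248). The diets did not overlap in either region, as in 38.4% and 36.2% of all tested features there. Without HF replicate 2 the Resp18 difference was -0.32 in the hypothalamus and -0.75 in the striatum, and without HF replicate 1 it was -0.34 and -0.45. Both fits share the 2 MF sections and are not independent. Pathway genes called in the whole section were Ptprn, Cpd, Baiap3 and Slc18a2 without HF replicate 1 and Nucb2 and Eipr1 without HF replicate 2. Calls over all features rose as well in these fits, which rest on 1 HF section.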

How the data were processed

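Probe reads had been aligned by the authors to mm10 with Space Ranger 2.0.0. The deposited matrices hold raw UMI counts per feature and spot, and the deposited spatial tables hold Moran's I, a score per feature and section. The members and gene lists were chosen with earlier results of these data known. Spots under 500 UMIs or 250 features were removed. Spots of 4 sections were clustered jointly on ln(CPM + 1), scaled within each section (scikit-learn 1.9.0 and leidenalg 0.10.2, 2000 variable features, 30 components, 20 neighbours, Leiden resolution 1), leaving out 77 features (members, pathway and precursor genes, mitochondrial and X-inactivation features). Diets were compared on counts summed per section and region with edgeR 4.0.16 (TMM, quasi-likelihood test, Benjamini-Hochberg adjustment over all features) in R 4.3.3. DESeq2 1.42.0, no TMM, no filter, blocks, thinning to 5000 UMIs, resolution 0.5, each section left out and the methods' Wilcoxon test over spots were alternatives. The edgeR step was tested on simulated data with 200 changed features. It recovered 58% of 1.5-fold changes in the whole section and 43.5% in the hypothalamus, and 88% and 84.5% of 2-fold changes. Smaller changes were not simulated. Total UMIs were 34983708 to 90098381 per section. Spots are not replicates, and PCR or probe differences between features are not corrected, so levels of different genes were not compared. Named were the 10 members, pathway genes called or with the 2 largest differences, precursors at 1000 CPM in 10 or more hypothalamic spots of a section, and the 3 most alike features, some of which are not reported here. Barcodes shared by sections (2649 to 3110 per pair) are array positions.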

Additional observations from a re-analysis of the deposited data

How the results depend on the processing

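No member was called under DESeq2 (not run for region by diet), at resolution 0.5 (not run for the whole section), without TMM or on thinned spots. Leaving out each section gave 0 to 3 members called in the whole section, 0 to 2 in the cortex, 0 to 3 in the thalamus, 0 to 4 in the hypothalamus, 0 to 1 for region by diet and 0 to 4 pathway genes in the whole section, the higher counts all without HF replicate 1 (2 pathway genes without HF replicate 2), when the lone HF section is assumed to vary like the MF ones. Without the filter on low counts, 1 member (Pam) was called for region by diet. The methods' Wilcoxon test over spots, which takes spots as replicates, called 1 member in the thalamus (Pcsk1), 1 in the striatum (Chgb) and 1 in the hypothalamus (Pam), and on thinned spots 1 in the hypothalamus (Pam). Whole-section log2 differences changed sign when a section was left out for Pcsk1 (-0.305 to 0.050), Pam (-0.25 to 0.092), Cpe (-0.28 to 0.14), Scg2 (-0.35 to 0.12), Scg3 (-0.12 to 0.026), Scg5 (-0.082 to 0.022) and Chga (-0.20 to 0.031), and kept it for Pcsk2, Pcsk1n and Chgb. Counts over all features were 0 in the whole section, 24 in cortex, 2 in hippocampus, 0 in thalamus, 0 in hypothalamus, 6 in striatum and 12 for region by diet. They were 22, 18, 24, 5, 5 and 3 with DESeq2 in the 6 comparisons, and 5, 127, 134, 103, 12, 41 and 302 without the filter. Without HF replicate 1 they were 1166, 805, 362, 1027, 670, 220 and 353, and without HF replicate 2 they were 840, 85, 38, 1345, 455, 32 and 54. With the replicate number as a block, 0 members were called in each of the 6 comparisons, and 0, 81, 17, 36, 1 and 11 features. Same-numbered sections deviated apart (correlation -0.197), and a crossed pairing, chosen after seeing the data, also called 0 members and 11 to 90 features. Levels in areas moved by 0.852-fold to 1.21-fold. Within 1 SD stayed 66 of 70 on thinned spots, 65 of 70 as a mean of CPM over spots and 57 of 60 at resolution 0.5. Leaving out 1 section could not move a mean beyond 1 SD of the same 4 sections, so those fits are not counted. Moran's I on ln(CPM + 1) fell from 0.391 to 0.256 for Scg2. The mean index moved by at least 1 SD for 6 of 10 genes on ln(CPM + 1). On thinned spots, where ln(CPM + 1) was used as well, it did so for 10 of 10. 2 sections per diet limit every diet comparison. The cause of these changes was not tested.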
